A study of Homo sapiens with 40 samples.

Results

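Knockdown of TNRC6A and TNRC6B was followed in total RNA of HEK293 cells, a human embryonic kidney line, with 2 libraries from cells that received control siRNA and 2 from cells that received siRNAs against both genes. These 4 libraries were chosen by their titles from the 40 of the series and were compared with the replicate number as a block, so that each TNRC6A/B siRNA library was set against the control library of the same number (pair 1 and pair 2). All 4 came from transfected, otherwise untreated cells of the same line, harvested at the same time after transfection. The study's methods give 1 siRNA for each target gene and a control siRNA from another supplier, so effects of a single siRNA sequence cannot be told apart from effects of losing its target. The labels do not say whether the replicates were separate cultures, and the p-values below then measure only the spread between these libraries.

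TNRC6A, TNRC6B and TNRC6C are the human GW182 proteins. In miRNA-mediated silencing a short miRNA guides an Argonaute protein to a complementary site, most often in the 3′UTR of an mRNA, and the Argonaute binds a GW182 protein, which recruits the Ccr4-Not and PAN2-PAN3 deadenylases so that the poly(A) tail is shortened, the cap is removed and the mRNA decays. Pairing rests mainly on the seed, bases 2 to 8 of the miRNA. Messages under this control are known to accumulate when GW182 proteins are lost, and the question put to these libraries was which mRNAs those were.

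Control replicate 1 held 28.8 M counts (M, mega) and control replicate 2 held 15.4 M, against 25.5 and 17.2 M for TNRC6A/B siRNA replicates 1 and 2. Of 13 markers of the HEK293 line 8 were at 1 CPM or more (CPM, counts scaled by library size) in all 4 libraries, among them VIM, KRT8, KRT18, NEFL, NEFM and LIN28B, and their summed level was 5430 to 5680 CPM with control siRNA and 6840 to 7120 CPM with TNRC6A/B siRNA. MYCN and DLK1, also on that list, were under 0.1 CPM throughout. None of the markers of blood cells, endothelial cells, hepatocytes or HeLa cells and keratinocytes reached 1 CPM in all 4 libraries, and of 9 fibroblast markers 2 did (COL1A1 and COL3A1). The largest difference between libraries followed the replicate number and not the siRNA. The first principal component held 74.75% of the variance and separated the replicates, the second held 19% and separated the siRNAs. Replicate 2 gave fewer counts than replicate 1 for mRNAs rich in G and C, with a correlation across 9808 genes between transcript GC content and the log2 ratio of the replicates of -0.838 for control siRNA and -0.76 for TNRC6A/B siRNA. The change after TNRC6A/B siRNA correlated with GC content by -0.242 in pair 1 and 0.508 in pair 2. Genes are not independent replicates, and these correlations are descriptions. The part of GC content in the changes of single genes was not tested beyond a corrected fit.

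The 6 miRNAs below are shown first because the results turn on their seeds. Their mature sequences are from RefSeq (the GRCh38.p14 table), written 5′ to 3′ with the seed, bases 2 to 8, in capitals.
hsa-miR-17-5p: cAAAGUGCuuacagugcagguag
hsa-miR-19b-3p: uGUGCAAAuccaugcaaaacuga
hsa-miR-92a-3p: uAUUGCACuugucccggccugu
hsa-miR-18a-5p: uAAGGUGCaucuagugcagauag
hsa-miR-16-5p: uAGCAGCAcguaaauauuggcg
hsa-let-7a-5p: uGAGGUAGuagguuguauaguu
miR-17, miR-18a, miR-19b and miR-92a are products of the miR-17-92 cluster. The miR-17 seed is carried by 8 mature miRNAs of the table, miR-20a-5p, miR-93-5p and miR-106b-5p among them, the miR-19b seed by 2, the miR-92a seed by 6, with miR-25-3p one of them, the miR-18a seed by 3 and the miR-16 seed by 7, so an effect of a seed belongs to the family and not to 1 molecule. An 8mer site is the reverse complement of the seed followed by A. On the sense strand of the 11900 3′UTRs of at least 50 nucleotides that were searched, the miR-17 8mer GCACTTTA stood in 5.56%, the miR-19 8mer TTTGCACA in 7.03%, the miR-92 8mer GTGCAATA in 3.77%, the miR-18 8mer GCACCTTA in 1.76%, the miR-16 8mer TGCTGCTA in 4.79% and the let-7 8mer CTACCTCA in 4.24%. miRNAs themselves were not measured in these poly(A) libraries.

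The targeted mRNAs were lower in both TNRC6A/B siRNA libraries. TNRC6A was at 178 and 189 CPM in control replicates 1 and 2 and at 40.5 and 64.7 CPM in TNRC6A/B siRNA replicates 1 and 2. TNRC6B was at 67.6 and 73.1 CPM against 17.7 and 26.3 CPM. The groups did not overlap for either gene, and both were lowest in TNRC6A/B siRNA replicate 1. The log2 fold change of TNRC6A was -1.84 (SE 0.17, FDR 1.06e-24), which leaves 27.9% of the control level, and that of TNRC6B was -1.70 (SE 0.17, FDR 5.21e-19), which leaves 30.7%. TNRC6C, the remaining GW182 gene, was not named as a target of the siRNAs, and it fell as well, from 44.4 and 37.4 CPM to 18.9 and 20.9 CPM (log2 fold change -1.04, SE 0.18, FDR 7.32e-07). Less mRNA of all 3 GW182 genes was therefore present. Of the Argonaute genes, AGO2 (the member that can cut its target) rose from 50.9 and 35.5 CPM to 84.8 and 56.1 CPM, with a log2 fold change of 0.70 (SE 0.17, FDR 0.00169). AGO1 had 201 and 178 CPM against 292 and 224 CPM, a log2 fold change of 0.44 that did not pass the test (FDR 0.0764). AGO3 and AGO4 overlapped between the groups, with log2 fold changes of 0.30 and 0.26 (FDR 0.368 and 0.497).

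**Figure D1:**
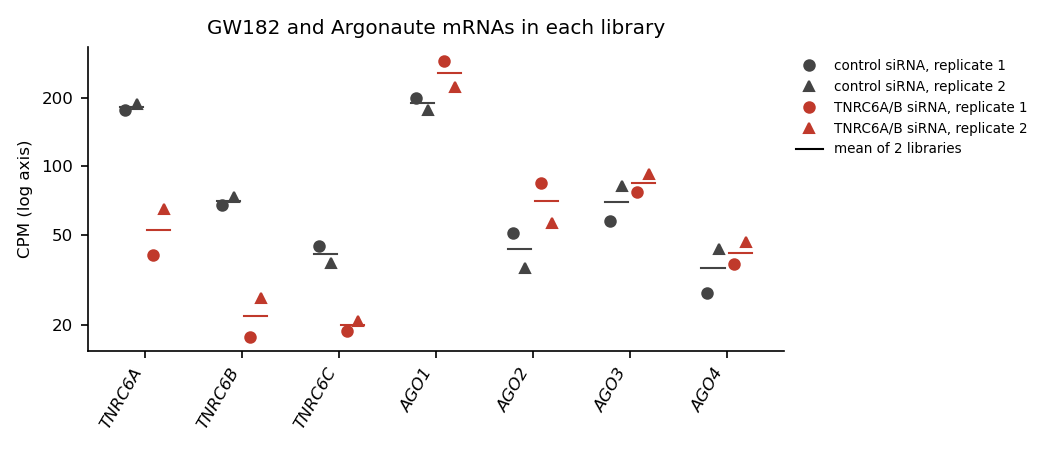
CPM (log axis) of the 3 GW182 genes and 4 Argonaute genes in each library, with control siRNA in grey and TNRC6A/B siRNA in red, replicate 1 as circles, replicate 2 as triangles and lines at the mean of 2 libraries. TNRC6A, TNRC6B and TNRC6C are lower in both TNRC6A/B siRNA libraries, and AGO1 and AGO2 are higher in both.

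Of 14064 genes tested, 520 (3.7%) rose and 243 (1.73%) fell after TNRC6A/B siRNA (edgeR quasi-likelihood F-test with the replicate block, Benjamini-Hochberg FDR below 0.05 over all genes). All of them moved the same way in both pairs, as did 60.4% of all genes tested. In 346 of the genes that rose and 203 of those that fell the 2 groups of libraries did not overlap, which held for 24.6% of all genes tested. The called increases had a median log2 fold change of 0.70, with 74 genes at or above a 2-fold change. The called decreases were fewer, with a median of -0.93 and 110 genes at or above a 2-fold change. Most of the increases were in well expressed genes (445 of 520 at a mean of 10 CPM or more), and most of the decreases were not (78 of 243). The sizes of the 2 groups were not compared at matched expression. Among called genes at a mean of 10 CPM or more whose groups did not overlap, the largest increases exceeded the largest decreases outside the GW182 genes. The changes of the 2 pairs, which share no library, correlated by 0.44 across all genes tested. CPM is a share of each library, so a change in the amount of all mRNA per cell cannot be seen in these values, and fewer cells with a message and less of it per cell cannot be told apart. These calls depend on the block. Without it no gene was called by edgeR (173 were higher and 116 lower with an unadjusted p under 0.05), and DESeq2 called 6 higher and 2 lower. With the block DESeq2 called 343 higher and 39 lower, among them 78 of the 121 called genes picked by the naming rule given below. A fit corrected for GC content called 1346 higher and 828 lower. The median absolute log2 difference was 0.481 between the control replicates, and 0.219 and 0.208 between the siRNAs in pairs 1 and 2.

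The 12 largest increases, among called genes with a mean of 10 CPM or more and no overlap of the groups, were led by PRTG, which encodes protogenin, a membrane protein of the immunoglobulin superfamily known from the embryo. It was at 46.7 and 72.3 CPM with control siRNA and at 221 and 253 CPM with TNRC6A/B siRNA, a 4.07-fold increase (log2 fold change 2.03, SE 0.16, FDR 1.25e-30). NR6A1, the orphan nuclear receptor germ cell nuclear factor, rose from 62.9 and 43.7 CPM to 236 and 142 CPM (log2 fold change 1.81, SE 0.16, FDR 3.45e-24). UHMK1, a serine/threonine kinase, was the most abundant of the 12 and rose from 152 and 244 CPM to 571 and 513 CPM (log2 fold change 1.49, SE 0.16). In each of these 3 genes both TNRC6A/B siRNA libraries stood well above both control libraries. MYLIP, an E3 ubiquitin ligase, rose from 12.6 and 15.1 CPM to 44.2 and 35.6 CPM (log2 fold change 1.53, SE 0.18). SIK1, a salt-inducible kinase, rose from 14 and 11.6 CPM to 45.2 and 32.2 CPM (1.59, SE 0.18). CPEB3, which binds cytoplasmic polyadenylation elements, rose from 5.93 and 8.81 CPM to 19.4 and 20.3 CPM (1.46, SE 0.20). In these 3 the replicates of a group lay close together beside the difference between groups. NR1H2, the oxysterol receptor LXR-beta, was at 10.9 and 2.37 CPM against 38.5 and 11.1 CPM (1.96, SE 0.21), so that its replicates differed more than 3-fold within each group and control replicate 1 lay just under TNRC6A/B siRNA replicate 2. CHIC1 (1.83), C7orf43 (1.64, now TRAPPC14), TMEM64 (1.63), NKIRAS1 (1.55, an inhibitor of NF-kappaB signalling) and ZNF367 (1.48, a zinc finger transcription factor) completed the 12. C7orf43 lies opposite LAMTOR4 and NKIRAS1 opposite NR1D2, RPL15 and UBE2E1 on the other strand, and the strand option of the counting is not given in the sources used here.

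**Figure D2:**
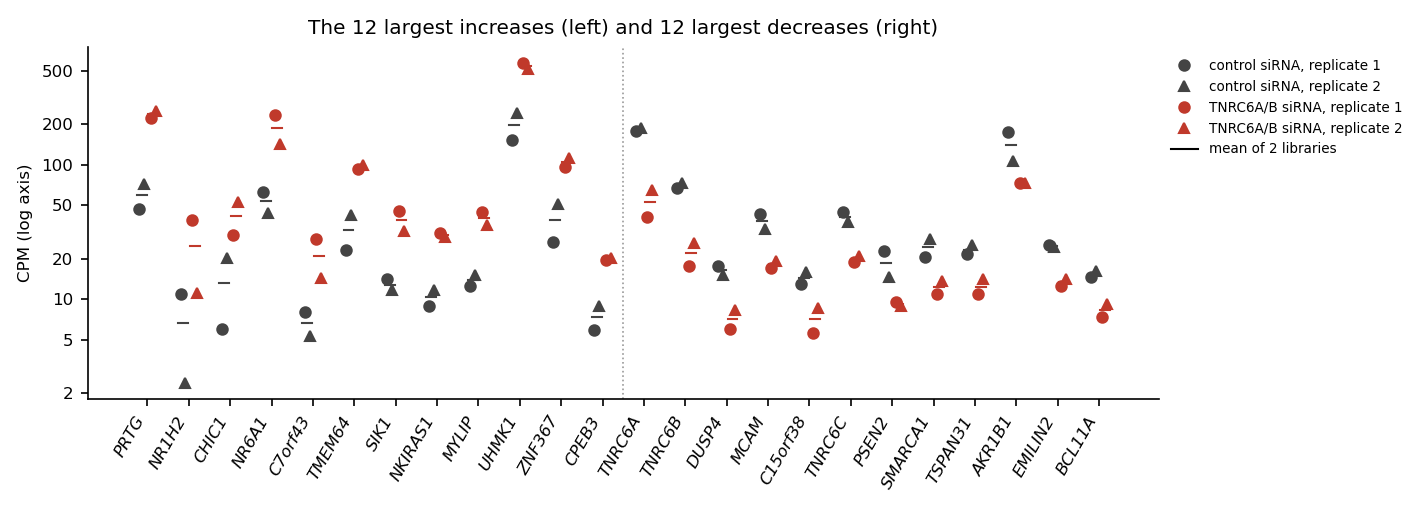
CPM (log axis) in each library for the 12 genes with the largest increases and the 12 with the largest decreases, control siRNA in grey and TNRC6A/B siRNA in red, replicate 1 as circles, replicate 2 as triangles, lines at the mean of 2 libraries. In all 24 genes the grey and red points do not overlap, and NR1H2 has the widest spread between replicates.

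The 3′UTR searched was that of the transcript with the longest coding sequence. Of these 12 mRNAs, 10 hold an 8mer of the miR-17, miR-19, miR-92 or miR-16 family, against 18.1% of all 3′UTRs searched. A let-7 8mer stands in 3 of the 12, and NR1H2 holds neither. The 4 families were picked because they ranked highest in these same changes, so this count is a description. mRNAs with such an 8mer also had longer 3′UTRs (median 2971 nucleotides, against 1019 without). Sites are shown for 8 of the 12 mRNAs, to let the pairing with the seeds above be read. Each is the mRNA strand 5′ to 3′ in GRCh37, with the 8mer in capitals after the 14 bases before it, and all lie in the 3′UTR of the named gene.
SIK1, miR-17 site, chr21:44834709-44834730, minus strand: tgaagcaatgacaaGCACTTTA
NKIRAS1, miR-17 site, chr3:23934438-23934459, minus strand: ggaagtcaattaatGCACTTTA
C7orf43, miR-17 site, chr7:99752136-99752157, minus strand: gtttgcagcctgaaGCACTTTA
MYLIP, miR-92 site, chr6:16148164-16148185, plus strand: gatgaccttatcggGTGCAATA
MYLIP, miR-19 site, chr6:16148278-16148299, plus strand: tatgcatttgtttcTTTGCACA
CHIC1, miR-19 site, chrX:72900982-72901003, plus strand: gtttatgaagaaaaTTTGCACA
CPEB3, miR-92 site, chr10:93809013-93809034, minus strand: ctatttgttgttatGTGCAATA
PRTG, miR-16 site, chr15:55906141-55906162, minus strand: tcatctctgcaaacTGCTGCTA
PRTG, let-7 site, chr15:55911791-55911812, minus strand: cctttgctgactatCTACCTCA
NR6A1, let-7 site, chr9:127284589-127284610, minus strand: gttgacaaagatgaCTACCTCA
NR6A1, let-7 site, chr9:127283618-127283639, minus strand: aggggggctttaaaCTACCTCA
A match of letters is not evidence that a miRNA binds there, and binding was not measured.

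The 12 largest decreases include the 3 GW182 genes. TNRC6A and TNRC6B came first, and TNRC6C lay below DUSP4, MCAM and C15orf38 in size. DUSP4, a phosphatase that switches off MAP kinases, fell from 17.6 and 15.2 CPM to 5.97 and 8.36 CPM (log2 fold change -1.23, SE 0.20, FDR 1.87e-07). MCAM, a cell adhesion molecule of the immunoglobulin superfamily, fell from 42.9 and 33.4 CPM to 16.9 and 19.3 CPM (-1.08, SE 0.18, FDR 3.6e-07). AKR1B1, aldose reductase, fell from 174 and 107 CPM to 73.7 and 73.0 CPM (-0.90, SE 0.16, FDR 5.13e-06). The 2 TNRC6A/B siRNA libraries were nearly equal for AKR1B1, whereas the controls differed. C15orf38 (-1.05), PSEN2 (-1.0, a catalytic subunit of gamma-secretase), SMARCA1 (-0.97, a chromatin remodelling ATPase), TSPAN31 (-0.92, a tetraspanin), EMILIN2 (-0.89, an extracellular matrix glycoprotein) and BCL11A (-0.89, a transcription factor) were the others. An 8mer of the 4 families stood in 2 of the 11 members of this group with a searched 3′UTR, near the 18.1% of all 3′UTRs searched.

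The mRNAs that rose were compared with seed matches for 46 miRNAs, without regard to named genes. For each miRNA the change of mRNAs with an 8mer was set against that of mRNAs with no match to seed bases 2 to 7, adjusted by regression for 3′UTR length and GC content, because mRNAs that rose had longer 3′UTRs (median 1871 nucleotides, against 1247 in those that fell and 1209 in those not called). With 8mer sites the miR-17 family stood first. With 7mer-m8 sites counted as well, its value fell from 0.289 to 0.138, level with 0.14 for miR-19. The 662 mRNAs with its 8mer had a median log2 fold change of 0.19 against -0.02 in 6039 mRNAs without a match, and the adjusted difference was 0.29, with 0.31 in pair 1 and 0.21 in pair 2. Of these mRNAs 121 (18.3%) rose and 8 (1.21%) fell, beside 4.2% and 1.65% of all mRNAs with a 3′UTR searched. The miR-92 family, with miR-25 on the same seed, had an adjusted difference of 0.20 (pairs 0.23 and 0.15) over 449 mRNAs, of which 79 (17.6%) rose. The miR-19 family had 0.17 (0.18 and 0.13) over 836 mRNAs, of which 106 (12.7%) rose. Of the seeds of the same cluster, miR-18a was lowest, with 0.12 (0.14 and 0.08) over 210 mRNAs and 24 (11.4%) higher. The miR-16 family, which is encoded elsewhere, had 0.12 (0.11 and 0.12) over 570 mRNAs, of which 61 (10.7%) rose. Pair 1 gave the larger value for each of these families except miR-16.

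The other 40 miRNAs had adjusted differences of 0.09 or less, led by miR-221 (0.09), miR-30a (0.08), miR-181a (0.08) and miR-101 (0.07). The 8 miRNAs known mainly from 1 other tissue or from blood, which serve as a comparison, ran from -0.05 to 0.06 with a median of -0.02, and 3 of them were above 0 in both pairs. let-7a had an adjusted difference of 0.01 (0.01 in pair 1 and 0.00 in pair 2) over 504 mRNAs, of which 29 (5.75%) rose. The value for let-7 thus lay among those of the comparison miRNAs, although NR6A1 and PRTG carry let-7 8mers. These differences were not tested, since mRNAs are not replicates and there were only 2 pairs.

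**Figure D3:**
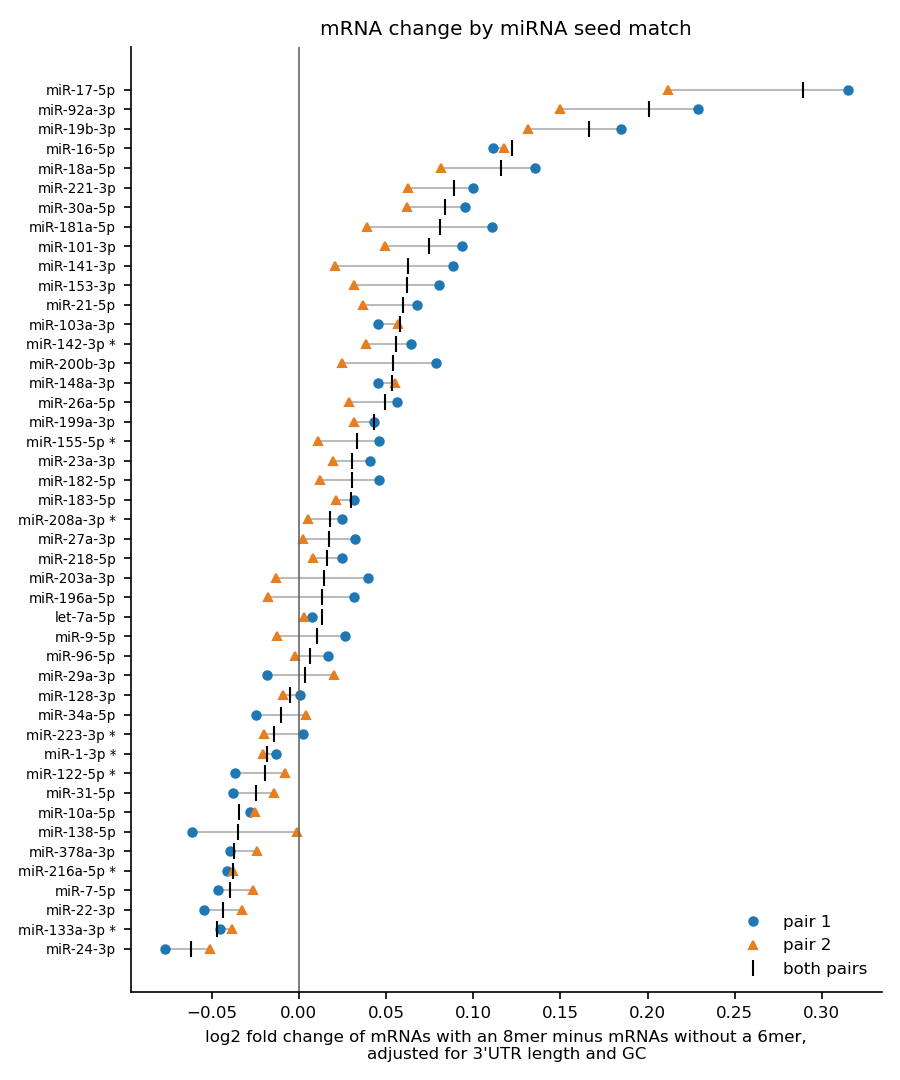
Difference in log2 fold change between mRNAs with an 8mer and mRNAs without a match to the seed, adjusted for 3′UTR length and GC content, for 45 miRNAs (miR-25 is left out because its seed is that of miR-92a), with circles for pair 1, triangles for pair 2 and bars for both pairs together. miR-17, miR-92a, miR-19b, miR-16 and miR-18a lie highest in the fit of both pairs, and miRNAs marked with an asterisk, known mainly from another tissue or blood, lie between -0.05 and 0.06.

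Words of 4 of these families also led when no miRNA was named. All 16384 words of 7 bases were ranked by the adjusted difference between 3′UTRs with and without the word, scaled for the number of mRNAs. GCACTTT, complementary to bases 2 to 8 of miR-17, ranked 1 in both pairs together, in pair 1 and in pair 2. It stands in 24.6% of the 3′UTRs. CACTTTA (miR-17 bases 2 to 7 and A, in 16.1%) ranked 2, and TTTGCAC and TTGCACA, the corresponding words of miR-19 (in 15.5% and 14.5%), ranked 3 and 4. Ranks 7 and 8 were the miR-92 words TGCAATA and GTGCAAT (in 13.2% and 12.8%), and ranks 9 and 10 the miR-16 words GCTGCTA and TGCTGCT (in 10.2% and 24.2%). Of the remaining words, TGCACTT (rank 5, in 16.4%) overlaps the miR-17 site by 6 bases and is complementary to the seeds of miR-519a, miR-519b and miR-519c, and TTGCACT (rank 6, in 16.4%) is complementary to those of miR-130b, miR-301a, miR-301b and miR-454. No word of miR-18a or let-7 was among the first 20. In all, 8 of the first 10 words and 11 of the first 20 were matches of the miRNAs listed, which account for 88 of all words. Words of 1 family overlap in their letters, and the ranks of such words are not independent.

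mRNAs with sites of several of the leading families changed more. Among mRNAs with no 8mer of the miR-17, miR-19, miR-92 and miR-16 families 2.16% rose, with 11.8% for 1 family, 23.4% for 2 and 14.3% for 3 or more, where there were only 35 mRNAs. The median log2 fold change was -0.02, 0.13, 0.21 and 0.36 in this order, whereas the share that fell stayed between 1.26% and 2.86%. Median 3′UTR length rose in the same order, at 1019, 2709, 4169 and 5968 nucleotides, and its part in this gradient was not tested. With repeated sites of miR-17 the share that rose was larger, at 3.37%, 17.2% and 33.3% for 0, 1 and 2 or more 8mers. Their median 3′UTR lengths were 1205, 3099 and 4838 nucleotides. The share also climbed for miR-19 (3.56%, 11.8% and 23.8%) and miR-16 (3.87%, 10% and 19%). For miR-92 the share was 3.68%, 17.8% and 13.6%, the last over 22 mRNAs. Of the 500 mRNAs with a searched 3′UTR that rose, 289 (57.8%) held an 8mer of at least 1 of the 4 families, as did 28 of 196 (14.3%) of those that fell. When 3′UTRs were ranked by length and cut into 3 equal classes, 21.7% of 152 mRNAs with such a site in the shortest class rose, against 1.36% of 3814 without one, and in the longest class the shares were 11.9% and 2.43%. The 4 families were picked because they ranked highest here, so these counts describe the pattern and do not test it.

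**Figure D4:**
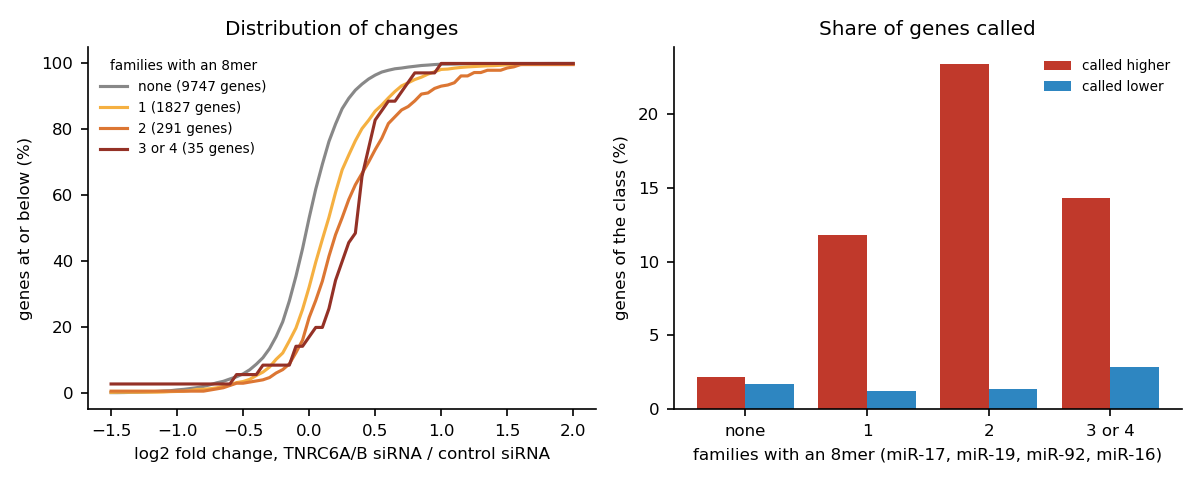
Left, percent of mRNAs at or below each log2 fold change, by the number of the miR-17, miR-19, miR-92 and miR-16 families with an 8mer in the 3′UTR. Right, percent of each class that was called higher (red) or lower (blue), from 2.16% higher with no family to 23.4% with 2 families.

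mRNAs with 2 or more miR-17 8mers, of which 33.3% rose, included the steepest increases. The examples in this paragraph were taken only from mRNAs that rose, so mRNAs with as many sites that did not rise are not shown. ENPP5, of the ectonucleotide phosphodiesterase family, rose from 1.51 and 3.44 CPM to 9.98 and 11.4 CPM (log2 fold change 2.22, SE 0.23, FDR 4.84e-18). PLSCR4, a phospholipid scramblase, rose from 1.65 and 2.69 CPM to 8.28 and 10 CPM (2.12, SE 0.24, FDR 1.31e-15). Both were low in the controls and did not overlap between groups. ANKRD52 (1.14), a regulatory subunit of a protein phosphatase, C2CD2 (1.11), ZNFX1 (1.02), an RNA-sensing helicase, and EFCAB14 (0.96) were the others named by their 2 sites. With the miR-19 family, CLOCK, the circadian transcription factor, held 2 sites and rose from 45.2 and 64.2 CPM to 115 and 114 CPM (1.09, SE 0.17). With the miR-16 family, FGF2, a fibroblast growth factor, held 3 sites and rose from 12.4 and 20.6 CPM to 29.1 and 32.5 CPM (0.95, SE 0.18). With let-7, TRIM71, a ubiquitin ligase of stem cells, held 4 sites and rose from 20.2 and 17.7 CPM to 33.0 and 25.7 CPM (0.63, SE 0.18, FDR 0.0127).

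Lists of genes known as miRNA targets from other work were read next. They were chosen with earlier results of these data known, so their counts are descriptions. The list of the miR-17-92 cluster had the highest share of increases, and those of miR-15/16 and let-7 had close medians. Of 28 tested targets of the miR-17-92 seeds 15 (53.6%) rose and none fell, beside 3.7% and 1.73% of all genes tested. Their median log2 fold change was 0.61 (0.58 in pair 1, 0.41 in pair 2) beside -0.01 over all genes. The increases did not share 1 role in the cell cycle, as the inhibitor CDKN1A and cyclin D1 (CCND1) both rose. The brakes RB1 (0.30) and RBL1 (0.35) were not called. CDKN1A, the CDK inhibitor p21, rose from 16.8 and 16.1 CPM to 22.2 and 28.7 CPM (log2 fold change 0.61, SE 0.18, FDR 0.0193). BCL2L11, the pro-apoptotic protein BIM, rose from 82.4 and 80.2 CPM to 155 and 119 CPM (0.74, SE 0.16, FDR 0.000352). TXNIP, an inhibitor of thioredoxin and of glucose uptake, rose from 15.4 and 14 CPM to 26.6 and 26.1 CPM (0.84, SE 0.18). In all 3 the groups did not overlap. NKIRAS1, MYLIP, ZBTB4 (1.34), ZNFX1, CCND1 (0.99), ITGA5 (0.78), PKD2 (0.77), VLDLR (0.74), LIMK1 (0.72), SMAD7 (0.62), DNAJC27 (0.60) and TNFAIP1 (0.51) were the others, and E2F1 (0.35), E2F2 (0.01), RBL2 (-0.02) and STAT3 (-0.29) were among the 13 not called.

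Of 19 tested targets of miR-15/16 5 (26.3%) rose and none fell (median 0.23), beside 3.7% and 1.73% of all genes tested. RECK, an inhibitor of matrix metalloproteinases, rose from 12.1 and 17.5 CPM to 28.2 and 28.6 CPM (log2 fold change 0.97, SE 0.18, FDR 1.57e-05). WEE1, the kinase that holds back mitosis, rose from 88.8 and 117 CPM to 183 and 179 CPM (0.83, SE 0.16). CCND1, cyclin D1, which also belongs to the miR-17-92 list, rose from 152 and 121 CPM to 304 and 238 CPM (0.99, SE 0.16, FDR 9.79e-08). Cyclin D2 (CCND2, 0.58) and CDK6 (0.51), the kinase that D cyclins activate, rose as well and belong to the let-7 list too. Of 25 tested let-7 targets 6 (24%) rose and none fell (median 0.23), a share close to that of miR-15/16. The 6 were NR6A1, ARID3A (0.73), TRIM71 (0.63), CCND2, HIC2 (0.54) and CDK6. HMGA2, the best known let-7 target, was at 83.1 and 105 CPM against 77.6 and 92.1 CPM (-0.15, FDR 0.752). LIN28B, which blocks let-7 maturation and is itself a target, was at 173 and 228 CPM against 257 and 267 CPM (0.40, FDR 0.123). NRAS (0.23) was not called either.

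Of 23 genes of the Ccr4-Not and PAN complexes and their recruiters, 3 (13%) rose and none fell (median 0.10), beside 3.7% and 1.73% of all genes tested. BTG3, an antiproliferative protein that binds the CNOT7 and CNOT8 deadenylases, rose from 46.3 and 69.6 CPM to 119 and 132 CPM (log2 fold change 1.14, SE 0.16, FDR 1.93e-09). TOB2, of the same family, had 56.2 and 31.7 CPM against 79.7 and 53.9 CPM (0.63, SE 0.17, FDR 0.00698), and TNKS1BP1 had 51.9 and 25.9 CPM against 70.2 and 44.3 CPM (0.59, FDR 0.0133). Both passed the test within pairs although the groups overlapped, since replicate 1 was higher than replicate 2 in each group. CNOT1, the scaffold of Ccr4-Not, was at 820 and 716 CPM against 1105 and 783 CPM (0.28, FDR 0.362), and CNOT7 (-0.14), CNOT8 (-0.05), PAN2 (-0.19) and PAN3 (0.10) were not called. Of 22 decapping and P-body genes 1 (4.55%) rose. This was GIGYF1, a partner of the cap-binding repressor 4EHP, with 49.3 and 40.1 CPM against 128 and 71.3 CPM (1.11, SE 0.17, FDR 1.23e-08). None of 15 miRNA processing genes and none of 17 NMD factors was called, and of 16 host transcripts of miRNAs 2 rose, CTDSPL (0.51) and PANK1 (0.57).

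Several sterol genes were higher. Of 24 tested genes of cholesterol synthesis and uptake 6 (25%) rose and none fell, beside 3.7% and 1.73% of all genes tested, with a median of 0.14. MSMO1, a sterol C4 demethylase, rose from 48.4 and 98.2 CPM to 142 and 167 CPM (log2 fold change 1.16, SE 0.16, FDR 6.56e-10). MVK, mevalonate kinase, rose from 15.8 and 9.25 CPM to 26.9 and 17.5 CPM (0.83, SE 0.19, FDR 0.000588). In both genes the TNRC6A/B siRNA libraries lay above the controls. CYP51A1 rose by the largest factor (1.80, SE 0.37, FDR 0.000123) but from 0.683 and 0.375 CPM to 2.27 and 1.48 CPM, and its locus overlaps AKAP9. INSIG1 (0.83), which holds back sterol synthesis, and DHCR7 (0.54), a reductase of its last steps, rose as well.

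Signalling lists are read against the 3.7% of all genes tested that rose and the 1.73% that fell. The TGF-beta and BMP pathway gave 4 increases among 28 genes (14.3%) and no decrease, the co-receptor TGFBR3 (0.89, FDR 8.7e-06), the inhibitory SMAD7 (0.62), the receptor ACVR2B (0.51) and the ubiquitin ligase SMURF1 (0.51). Of 25 immediate early genes 5 (20%) rose, among them EGR1 (0.82), NR4A2 (0.83) and JUND (0.69), and DUSP4 fell. The median of this list was 0.03 in pair 1 and 0.40 in pair 2. Its median transcript GC content was 55.3%, against 48.2% over all genes tested, and the part of GC content in these changes was not tested. EGR1 was at 2.73 and 4.31 CPM against 3.73 and 9.61 CPM, so its groups overlapped. LATS2 (0.63), a Hippo kinase, and the YAP target F3 (1.07) rose among 23 Hippo genes (8.7%). In the Wnt list of 30 genes, which was near the background with 3.33% higher and 3.33% lower, FZD6, a receptor, rose (0.79, FDR 0.000329) and LGR5, a receptor and target gene, fell from 4.2 and 7.37 CPM to 1.66 and 2.79 CPM (-1.37, SE 0.25, FDR 6.35e-06). HIF1A (0.48) and its target ADM (0.86) rose among 27 hypoxia genes (7.41%), whose median was -0.05 in pair 1 and 0.22 in pair 2. The p53 targets DDB2 (-0.72) and CCNG2 (-0.78) fell among 23 genes of their list (8.7%), beside the rise of CDKN1A. Among 20 interferon genes none rose, and IFIT1 (-1.36) and IFITM2 (-0.80) fell (10%), IFIT1 from 2.01 and 1.75 CPM to 0.568 and 0.967 CPM. Among 27 genes of the integrated stress response 1 (3.7%, as over all genes) rose and 2 (7.41%) fell, STC2 (-0.56) among them, with a median of -0.23.

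Some HOX and neuronal genes were among the decreases. Of 34 tested HOX genes 4 (11.8%) fell and none rose, beside 1.73% and 3.7% of all genes tested. The 4 were HOXC11, HOXC13 (-1.20), HOXB5 (-0.81) and HOXD10 (-0.77), and the median of the list was -0.14. HOXD10 was the best expressed of them, at 11.3 and 17.9 CPM against 7.06 and 9.84 CPM. Of 18 genes known mainly from neurons 4 (22.2%) fell, STMN3 (-1.41), SYP (-1.20), RTN1 (-0.96) and STMN2 (-0.82), and 2 (11.1%) rose, NEFL (0.73) and NCAM1. The median of this list was -0.05, with -0.10 in pair 1 and 0.08 in pair 2. STMN2, a microtubule regulator, was at 13.0 and 10.7 CPM against 7.35 and 6.14 CPM.

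Cell cycle and housekeeping lists mostly stayed near the background of 3.7% higher and 1.73% lower. Of 32 G2/M genes 2 rose, MKI67 (0.53) and KIF23 (0.66), and of 32 G1/S genes 1 rose, and of 7 CDK inhibitors only CDKN1A rose. None of 50 large ribosomal subunit genes, 37 complex I genes, 11 mitochondrially encoded genes and 11 replication-dependent histone genes was called, and of 31 small ribosomal subunit genes 1 rose and 1 fell (RPS27L, -0.63). Ribosomal protein genes have many near-identical pseudogenes that can share reads. Of 51 translation initiation factor genes EIF5A2 (0.72) rose. Of 233 SLC transporter genes 16 (6.87%) rose and 3 fell, SLC16A9 (0.89) among them, and of 49 RAB genes RAB12, RAB18 and RAB23 rose. Of 34 collagen and laminin genes 2 rose, COL12A1 (0.94) among them, and COL27A1 (-1.62) fell, and of 441 numbered ZNF genes 5 (1.13%) rose and 3 fell.

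The same genes were then read in cells with siRNA against CNOT1, the scaffold through which GW182 proteins reach the deadenylases. These were 8 input libraries of a sucrose gradient experiment, 4 with CNOT1 siRNA and 4 with control siRNA, and share no library with the TNRC6A/B experiment. There 33.4% of 15686 genes were called higher and 32.9% lower. Of the 520 genes that rose after TNRC6A/B siRNA, 306 (58.8%) were higher and 111 (21.3%) lower after CNOT1 siRNA, with a median log2 fold change of 0.28, against 34.1% higher and 35.4% lower among genes not called. Of 241 genes that fell 128 (53.1%) were also lower after CNOT1 siRNA, and 53 (22%) were higher. In 1 fit over all 12 libraries the change after TNRC6A/B siRNA exceeded that after CNOT1 siRNA in 2644 of 16659 genes (15.9%) and was below it in 2168 (13%). The CNOT1 inputs were lysates cleared of nuclei whereas the TNRC6A/B total RNA was extracted from whole cells, so the siRNA and the preparation cannot be told apart. Without the replicate block the counts were 654 and 568.

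The largest increases did not all go the same way after CNOT1 siRNA. Of the 12, 5 were higher and 4 lower there, beside 33.4% and 32.9% of all genes tested. In 11 the change after TNRC6A/B siRNA was the greater by test. Because the 12 were picked for their size after TNRC6A/B siRNA, this count is largely set by that choice and is given as a description. UHMK1 fell by 1.39 on the log2 scale after CNOT1 siRNA (SE 0.04, FDR 3.16e-10), against its rise of 1.49 here (FDR of the difference 1.66e-07). TMEM64 (-0.49), NR6A1 (-0.41) and CHIC1 (-0.19) were lower as well. NKIRAS1 (1.09), NR1H2 (1.12), C7orf43 (1.26), SIK1 (0.92) and MYLIP (0.27) were higher after both, and for C7orf43 the 2 changes did not differ by the test (FDR 0.0552). PRTG, ZNF367 and CPEB3 were each at 0.09 after CNOT1 siRNA and were not called there. Of the decreases, AKR1B1 (-0.86), C15orf38 (-1.15), TSPAN31 (-0.82) and DUSP4 (-0.99) fell after CNOT1 siRNA too, and PSEN2 (0.28) and EMILIN2 (0.28) rose. TNRC6A and TNRC6B rose after CNOT1 siRNA (0.70 and 0.30). The adjusted differences of the miRNA families were smaller there, 0.10 for miR-17, 0.11 for miR-19, 0.09 for miR-92, 0.09 for miR-16 and -0.00 for let-7, and the word GCACTTT ranked 633 whereas TTTGCAC ranked 4.

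**Figure D5:**
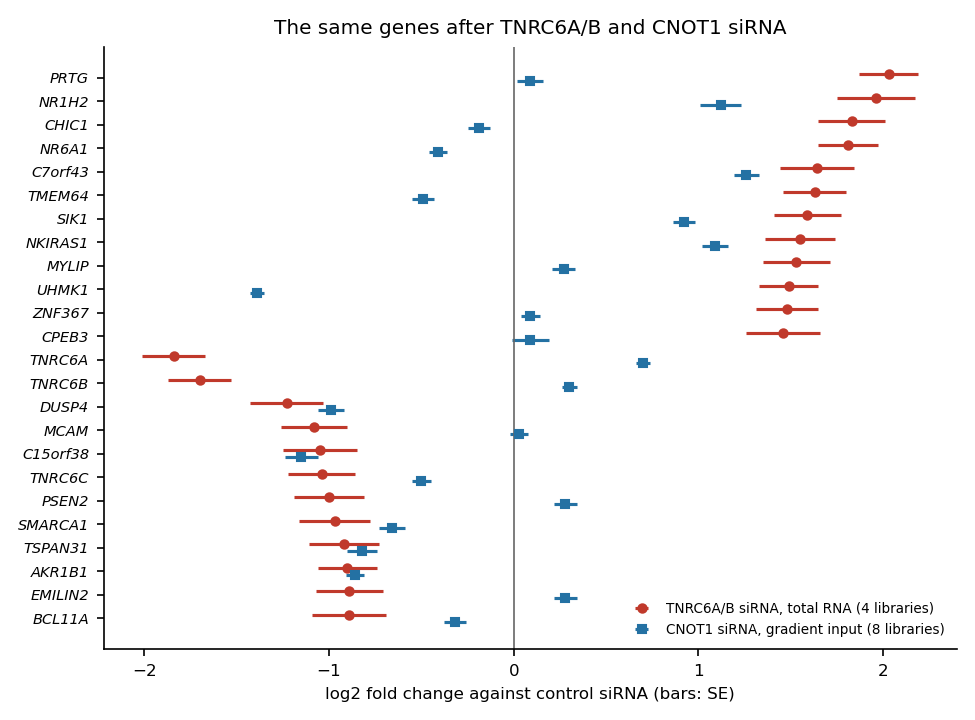
Log2 fold change against control siRNA with its SE for the 12 largest increases and 12 largest decreases, after TNRC6A/B siRNA in total RNA (red, 4 libraries) and after CNOT1 siRNA in gradient input (blue, 8 libraries). UHMK1, TMEM64, NR6A1 and CHIC1 are above 0 in red and below 0 in blue, and TNRC6A and TNRC6B are below 0 in red and above 0 in blue.

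Finally, the called genes were read in the RNA immunoprecipitations of untreated cells, 3 libraries each for eIF4A1, eIF4A2 and DDX6 and 3 of total RNA, which all 3 precipitates share as their denominator. Of the genes that rose after TNRC6A/B siRNA 32.5% were called higher than total RNA in the eIF4A1 precipitate, 30.2% in that of eIF4A2 and 29% in that of DDX6, beside 26.1%, 24.5% and 22.7% of all genes tested there. Among genes not called the shares were 26.3%, 24.5% and 24.1%, and among genes that fell 24.8%, 25.6% and 21.1%. The shares lower than total RNA were 21.9%, 24.8% and 18.3% for genes that rose, against 30.7%, 30.6% and 26.5% for genes not called and 26.5%, 25.8% and 23.3% of all genes tested. No test was made of these shares.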

How the data were processed

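RNA-Seq was performed by the study on total RNA of HEK293 cells transfected with control siRNA or with siRNAs against TNRC6A and TNRC6B (2 libraries each). Libraries were made with a TruSeq stranded kit for mRNA. The deposited files hold counts, 1 unnormalised integer per gene symbol for 55765 symbols. Per the labels and methods the authors made these counts from reads converted with bcl2fastq 2.0, aligned to hg19 with TopHat2 and counted with HTSeq, and the strand option is not given in the sources used here. A further deposited table of the authors' own precipitate comparisons (log2 fold changes, p-values) and the gradient fraction files were not used.

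Counts were tested with edgeR 4.0.16 in R 4.3.3 (filterByExpr, TMM factors, quasi-likelihood F-test, two-sided, FDR below 0.05 over all genes tested), with the replicate number of the titles as a block. Numbers shared by libraries pair them here because replicate 1 of both groups departed from its group mean in the same genes (correlation of the departures 0.821). The block was set with that known, and 2 pairs leave 1 residual degree of freedom per gene. CPM are counts divided by library size after TMM adjustment. Changes within a pair used a pseudocount of 0.5 CPM. The CNOT1 siRNA inputs and the precipitates were fitted likewise, and the difference between the knockdowns as an interaction in 1 fit of 12 libraries. The scripts for counts and seeds were tested on simulated data.

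3′UTRs came from GENCODE release 44 mapped to GRCh37, from the transcript with the longest coding sequence. Of the symbols 33529 matched a current and 1853 an older symbol, and 20383 were unplaced. Of 52 listed miRNAs 46 had a sequence in the RefSeq table. The members, gene lists, miRNAs and tests were chosen with earlier results of these data known. Genes were named by a rule: the GW182 genes, the 12 largest increases and decreases among called genes with a mean of at least 10 CPM, the same sign in both pairs and no overlap between groups, up to 4 called members of each list with a mean of at least 1 CPM, members of the GW182 and Argonaute, let-7 and Ccr4-Not lists whether called or not, and up to 6 mRNAs that rose with the most 8mers of each family. All members that rose are named for the miR-17-92 list, and uncalled members of that list, HOXC11, INSIG1, DHCR7, NEFL and NCAM1 were named after their values were seen. Alternatives were no block, DESeq2 1.42.0, a likelihood ratio test, RLE factors, other filters, a spread shared with the gradient inputs, leaving out each library and, chosen after the data were seen, a GC correction and DESeq2 without the block. Reads carry no molecular identifiers, so depth describes counting error only. Some genes that belong to these lists are not reported here.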

Additional observations from a re-analysis of the deposited data

How the results depend on the processing

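The replicate block decided the calls. With no replicate block, with or without GC correction, edgeR called 0 genes higher and 0 lower, and leaving out any 1 of the 4 libraries (no block, since 1 pair leaves no residual degrees of freedom, and the lone library of a group is assumed to vary like the other group) also gave 0 to 0 and 0 to 0. DESeq2 with no replicate block called 6 and 2. With the block, DESeq2 called 343 higher and 39 lower (3272 genes had no adjusted p), a spread shared with the gradient inputs 1186 and 518, a GC correction 1346 and 828, of which 509 and 198 were called without it, and a minimum mean of 5 CPM 434 and 133. A likelihood ratio test, RLE factors and no filter on low counts stayed within 1.5 times of 520 and 243. Against CNOT1 siRNA, 654 genes exceeded and 568 were below with no replicate block, and leaving out 1 library gave 367 to 1930 and 239 to 1664, with the extremes for the first count without TNRC6A/B siRNA replicate 2 and control siRNA replicate 1, and for the second without gradient input control replicate 3 and control siRNA replicate 2. Of 121 called genes picked by the naming rule, not all of which are mentioned above, none changed direction with the block. Leaving out 1 library (no block) reversed 5 of them, which ranged from -0.14 to 1.79 for ARL2, -0.57 to 1.82 for CDT1, -0.27 to 1.97 for COL18A1, -0.10 to 1.43 for RPS28 and -0.98 to 0.16 for ASNS. Without control siRNA replicate 2 these stood at -0.02, -0.20, -0.14, -0.10 and 0.16, and without TNRC6A/B siRNA replicate 1 RPS28 was at -0.04. RPS28, CDT1 and COL18A1 are among the increases counted above for the small ribosomal subunit, G1/S and collagen lists. ASNS is among the decreases counted for the integrated stress response. With 7mer-m8 or 8mer sites the adjusted differences were 0.138 for miR-17, 0.14 for miR-19, 0.099 for miR-92, 0.072 for miR-16, 0.036 for miR-18a and -0.002 for let-7. The longest 3′UTR gave 0.114 for miR-16 and 0.021 for let-7, and a minimum of 5 CPM 0.114 and -0.017. Each pair alone gave 0.211 to 0.315 for miR-17, 0.111 to 0.118 for miR-16 and 0.003 to 0.007 for let-7. The cause of these shifts was not tested. With 2 libraries a group, changes smaller than about 0.46 on the log2 scale were not called in any gene.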
